A study of Mus musculus with 9 samples.

Results

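The serpins are a family of proteins that share 1 fold. Most of them inhibit serine proteases by offering a reactive loop as bait and trapping the protease that cuts it, and a few carry hormones or help other proteins fold. The liver makes many of the serpins of blood plasma, among them antitrypsin, antithrombin, antiplasmin and C1 inhibitor, and several plasma serpins belong to the acute-phase response to inflammation. The members described here are the genes whose symbol on the array is Serpin followed by a letter from a to i and a digit, without pseudogene symbols. There were 53 such genes among 22180 genes with a probe set of their own, 19 of clade a, 25 of clade b, 2 each of clades f and i, and 1 each of clades c, d, e, g and h. Further symbols of this pattern in the RefSeq annotation, among them Serpina3c, Serpina3k, Serpina3m and Serpinb10, were not analysed here.

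Liver RNA of C57BL/6 mice, 5 weeks old at the start, was measured on whole-transcript arrays after an overnight fast. In the strain field the name is spelled C56BL/6J. The group RD received a regular diet and vehicle, the group HFD a high-fat diet and vehicle, and the group GFB a high-fat diet with an extract of ginseng flower buds at 500 mg/kg by mouth once a day for 12 weeks. Each group had 3 arrays. Nothing in the labels states that the arrays come from different mice. The p-values therefore measure only the spread between these samples, which may be technical. A group of the high-fat diet models the diet as a whole, and no array of extract on the regular diet was analysed here.

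The values are log2 expression from robust multi-array average (RMA), so 1 unit is a 2-fold difference. Averaged over the arrays, the median gene stood at 4.74, and signal under it is not told from background here. Of the 53 members, 21 had a mean above that level and 31 lay under it on every array. The 6 hepatocyte markers had a mean log2 level of 11.16 to 11.58 over the arrays. That level was 11.42 to 11.58 in RD, 11.16 to 11.34 in HFD and 11.32 to 11.46 in GFB. The 6 markers were split in HFD against RD. Cps1 fell (log2 difference -0.66, adjusted p = 0.0224 in limma's moderated test), and Ass1 (-0.75) and Tat (-0.47) were lower without passing. Alb (0.015), Apoa1 (0.10) and Ttr (0.14) were higher, and none of these passed. The 6 neutrophil markers, S100a8, S100a9, Ly6g, Mmp8, Camp and Ngp, lay under 4.74 on every array. In a piece of tissue, fewer cells of a type and less RNA per cell cannot be told apart. RD replicate 1 lay with the HFD arrays for some of the genes below, whose differences are also given without it.

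Many serpin genes arose by local duplication, and the sequences show how alike the copies are at their starts. In the RefSeq promoter windows of assembly GRCm38.p6, the genes Serpina1a to Serpina1e, all copies of the antitrypsin gene on chromosome 12, share the stretch below. It is aligned on the letters GTTAAT (in capitals), part of the site that the liver factor HNF1 binds, and 87 of its 100 positions are the same in all 5 copies.
Serpina1a: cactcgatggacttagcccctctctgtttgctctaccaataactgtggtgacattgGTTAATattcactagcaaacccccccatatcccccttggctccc
Serpina1b: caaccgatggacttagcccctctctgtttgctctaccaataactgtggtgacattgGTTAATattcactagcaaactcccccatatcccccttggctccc
Serpina1c: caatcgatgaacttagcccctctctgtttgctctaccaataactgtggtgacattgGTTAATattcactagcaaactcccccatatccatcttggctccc
Serpina1d: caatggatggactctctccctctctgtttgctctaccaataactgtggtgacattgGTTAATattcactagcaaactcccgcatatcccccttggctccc
Serpina1e: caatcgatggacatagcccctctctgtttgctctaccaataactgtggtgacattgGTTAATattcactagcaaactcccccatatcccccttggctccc
These stretches lie on the minus strand at chr12:103863597-103863696 (Serpina1a), chr12:103738172-103738271 (Serpina1b), chr12:103904934-103905033 (Serpina1c), chr12:103773606-103773705 (Serpina1d) and chr12:103956932-103957031 (Serpina1e). Serpina1b and Serpina1e differ at 2 positions of the stretch, C4T and T13A, counted from its 5′ end with the base of Serpina1b first. Serpina1c and Serpina1d differ at 9, the largest number of any pair. These windows lie mostly outside the transcripts, and no probe or transcript sequences were compared here. For genes with close copies (the antitrypsin genes, the Serpina3 cluster and the Serpinb1, Serpinb3, Serpinb6 and Serpinb9 groups), the assignment of array signal to a single copy is uncertain.

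The promoter window of Serpina3n, the 1 member that passed the test on the diet, runs from 250 bases before to 50 bases after the annotated start, at chr12:104406458-104406757 on the plus strand.
Serpina3n: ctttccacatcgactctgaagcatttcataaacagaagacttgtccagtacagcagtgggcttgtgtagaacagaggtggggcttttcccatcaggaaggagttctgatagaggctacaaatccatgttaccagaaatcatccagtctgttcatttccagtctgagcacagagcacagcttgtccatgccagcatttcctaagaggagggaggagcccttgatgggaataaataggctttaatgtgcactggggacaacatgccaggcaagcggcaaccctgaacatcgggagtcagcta
The window of Serpina7, whose RD arrays fell far apart, lies at chrX:139085187-139085486 on the minus strand, the first of its 2 windows in the table. Capitals mark the matches to the 4 motifs searched.
Serpina7: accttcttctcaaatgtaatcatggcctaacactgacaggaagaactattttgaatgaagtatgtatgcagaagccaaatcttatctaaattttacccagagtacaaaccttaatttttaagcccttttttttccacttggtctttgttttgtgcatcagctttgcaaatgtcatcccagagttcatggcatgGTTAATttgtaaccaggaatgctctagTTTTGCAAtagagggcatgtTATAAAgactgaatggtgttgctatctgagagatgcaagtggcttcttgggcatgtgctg
The motifs, read on both strands, were the STAT palindrome TTCNNNGAA, the C/EBP letters TTGCNNAA, the HNF1 letters GTTAAT and the TATA letters TATAAA. They occurred in 8.3%, 10.8%, 7.1% and 13.6% of all 32851 windows of this length, and in 8, 15, 10 and 15 of the 55 windows of the 47 members that had one. The Serpina3n window held none of these letters. The HNF1 letters were chosen after the promoter windows were seen, so their count was not independent of that choice. The 9 member genes with them include the 5 antitrypsin copies above. Serpina10, Serpina6, Serpina9, Serpinb13, Serpinb1a and Serping1 had no window in the table.

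The first comparison asked which serpin genes differ on the high-fat diet without extract. Serpina3n, which encodes a secreted inhibitor related to human antichymotrypsin and known as an acute-phase protein, rose 1.66-fold on the diet. It was the 1 member of 53 to pass, or 1.89%, against 1.34% of all genes tested in either direction and 0.821% in the upward one, so the share of serpins that changed lay close to that of the array. Of the 53 members, 33 were higher and 20 lower on the diet, with a median log2 fold change of 0.05 against 0.00 for all genes. Serpina10 and Serpinb8 came next and did not pass. With them 3 members had an adjusted p under 0.10, against 2.75% of all genes, and 8 members, or 15.1%, had an unadjusted p under 0.05, against 13.3%. The HFD arrays lay wholly above the RD arrays for 6 members, or 11.3%, against 7.93% of all genes, and wholly below for 2, or 3.77%, against 7.86% (15.8% in either direction). Among the 21 brighter members these were 5 and 1, against 11.8% and 11.9% of the brighter genes. All p-values were adjusted by Benjamini-Hochberg over all 22180 genes in limma's moderated test.

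Serpina3n lay at 11.25, 11.27 and 10.91 on the log2 scale in the RD arrays, at 12.08, 11.76 and 11.78 in the HFD arrays, and at 11.58, 11.66 and 11.97 in the GFB arrays. Each of the 6 high-fat-fed arrays was above each RD array, and the HFD and GFB arrays overlapped. The log2 fold change of HFD over RD was 0.73 ± 0.14 (SE, n = 3 arrays per group, adjusted p = 0.0441). This call held in 6 of 17 alternatives, with adjusted p from 0.0202 to 0.123. It was lost without any 1 of the 6 RD and HFD arrays, without GFB replicate 1 (adjusted p = 0.0683) or 2 (adjusted p = 0.0808) and in a fit of RD and HFD alone (adjusted p = 0.112), and narrowly with a further quantile normalization (adjusted p = 0.0501), while the log2 fold change stayed between 0.61 and 0.79 in the fits without 1 array. The other members of the Serpina3 cluster with a probe set of their own, Serpina3a, Serpina3b, Serpina3i and Serpina3j, lay under 4.74 on every array, with log2 differences from -0.20 to 0.24.

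**Figure D1:**
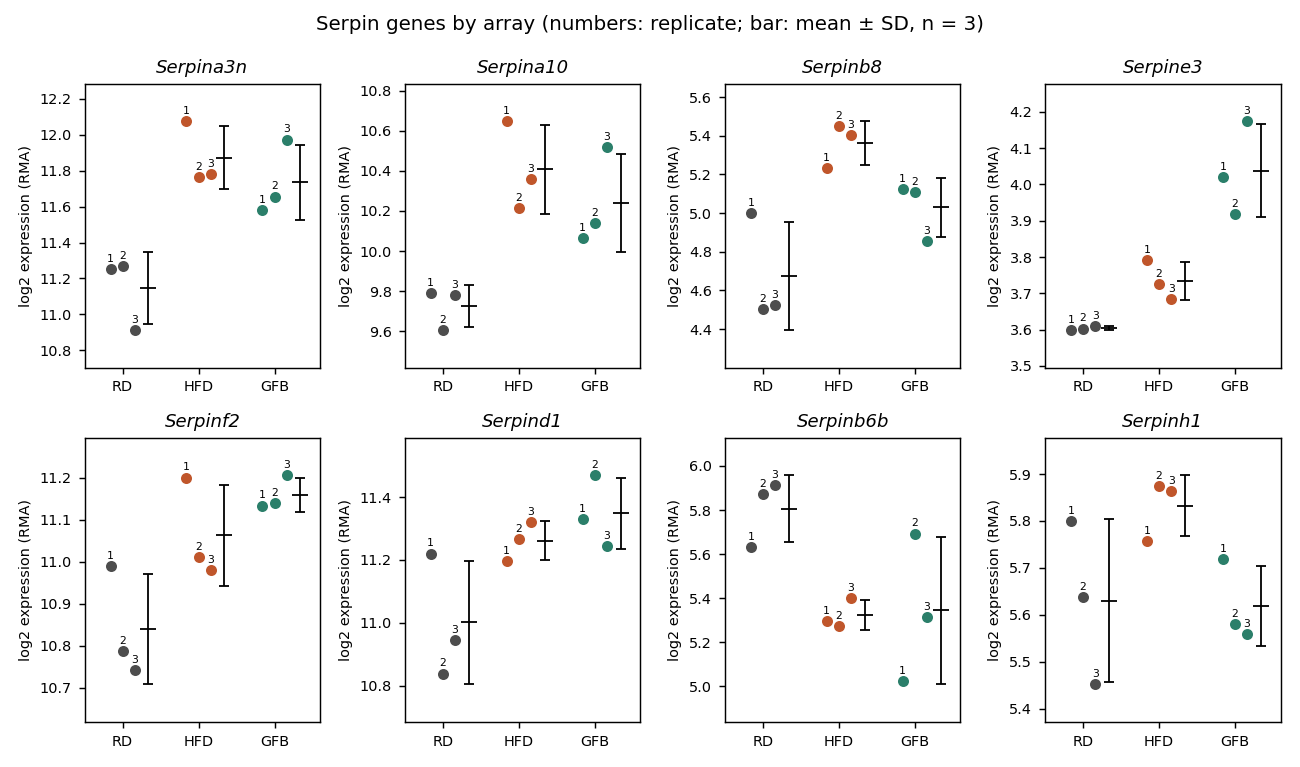
Log2 expression (RMA, vertical axis) of 8 serpin genes on each array, with 1 dot per array numbered by replicate, and the mean ± SD of the 3 arrays of each group as a bar. Serpina3n and Serpina10 lie higher in all HFD and GFB arrays than in any RD array, and Serpinh1 lies higher in the HFD arrays than in the GFB arrays.

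Serpina10 encodes the protein Z-dependent protease inhibitor, which blocks coagulation factor Xa with protein Z as its cofactor and also blocks factor XIa. Its log2 values were 9.79, 9.61 and 9.78 in RD, 10.65, 10.21 and 10.36 in HFD, and 10.06, 10.14 and 10.52 in GFB. Both high-fat-fed groups lay wholly above RD. The log2 fold change on the diet was 0.68 ± 0.14 (SE, n = 3 per group, adjusted p = 0.0576), with a 95% interval of 0.36 to 1.00. It was past the threshold in 3 of 17 alternatives.

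The genes of its cofactor and of factor XI were also higher, and that of factor X was not. Proz, which encodes protein Z, lay at 10.25, 10.19 and 10.28 in RD, at 10.66, 10.65 and 10.69 in HFD, and at 10.65, 10.73 and 10.65 in GFB. It rose on the diet by 0.43 ± 0.06 (SE, n = 3 per group, adjusted p = 0.0168). F11, which encodes coagulation factor XI, lay at 8.59, 8.06 and 8.07 in RD and at 9.51, 9.21 and 9.18 in HFD. F11 rose 2.09-fold (1.06 ± 0.17, SE, n = 3 per group, adjusted p = 0.0225). Neither gene overlapped between RD and either high-fat-fed group, and with extract both stood as on the diet alone, with log2 differences of GFB over HFD of 0.01 ± 0.06 for Proz and 0.05 ± 0.17 for F11. The 95% interval of the latter was -0.33 to 0.43. The calls for Proz and F11 on the diet each held in 11 of 17 alternatives, with adjusted p up to 0.0759 and 0.0918. They were lost in the fit of RD and HFD alone, without any 1 HFD array and without RD replicate 2, and for F11 also without RD replicate 3. F10, the factor X gene, differed by -0.05 ± 0.07 on the diet (adjusted p = 0.836) and by 0.01 for GFB over RD.

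**Figure D2:**
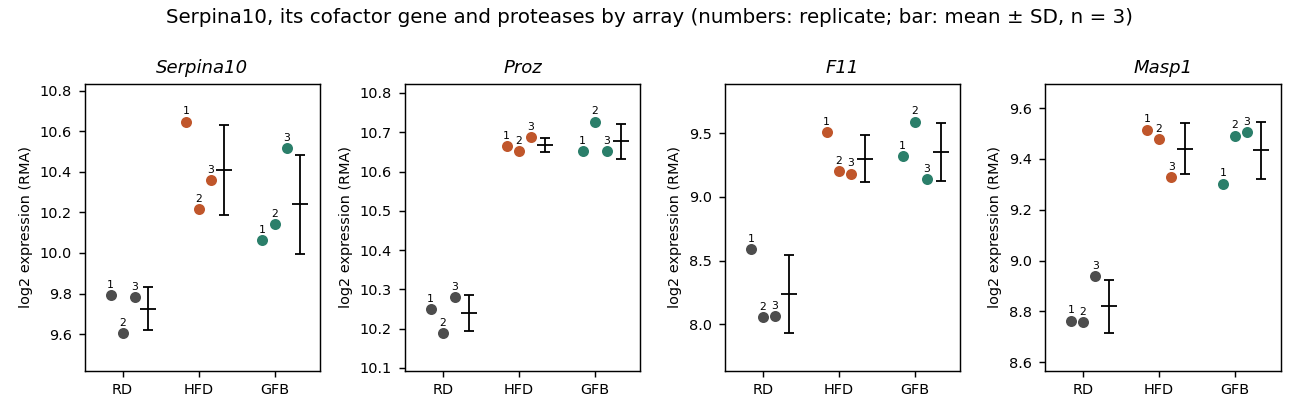
Log2 expression (RMA, vertical axis) by array of Serpina10, of Proz (its cofactor protein Z), of F11 (factor XI) and of Masp1 (a lectin pathway protease), with 1 dot per array numbered by replicate and the mean ± SD of each group as a bar. The 3 RD arrays lie below all 6 high-fat-fed arrays in each of the 4 panels.

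Among the 22 measured proteases of the list of serpin targets and related enzymes, F11 and Masp1 rose on the diet, none fell and 20 were higher, with a median log2 fold change of 0.08. Over all genes, 0.821% rose, 11106 of 22180 were higher and the median was 0.00. Of the 22 proteases, 5 (Elane, Ctsg, Gzmb, Klk1 and St14), all counted as higher, lay under 4.74 on every array. So did 10012 of all 22180 genes. Masp1, which encodes a protease of the lectin pathway of complement that C1 inhibitor blocks, lay at 8.76, 8.76 and 8.94 in RD and at 9.52, 9.48 and 9.33 in HFD (0.62 ± 0.09, SE, n = 3 per group, adjusted p = 0.0163). Its call held in 13 of 17 alternatives. It was lost without RD replicate 2 or HFD replicates 1 or 2 (adjusted p = 0.0693, 0.0551 and 0.0654) and in the fit of RD and HFD alone (adjusted p = 0.0733). F9, the factor IX gene, differed by 0.37 ± 0.10 (adjusted p = 0.137). Among the 17 measured cofactors, receptors and carriers, Proz alone rose, none fell and 13 were higher, with a median of 0.12. Against RD, the GFB arrays gave the same 3 genes, with Proz at 0.44 (adjusted p = 0.0274), F11 at 1.11 (adjusted p = 0.0324) and Masp1 at 0.61 (adjusted p = 0.0287). Each of these calls held in 8 of 17 alternatives, with adjusted p up to 0.144, and both comparisons use the same RD arrays. They were lost in the fit of RD and GFB alone and without RD replicates 2 or 3, HFD replicate 1 or any 1 GFB array. Without HFD replicate 2 those of F11 and Masp1 were lost, and without HFD replicate 3 those of F11 and Proz.

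The inhibitors of coagulation, fibrinolysis and complement differed less than Serpina10 on the diet, and none passed. Serpinf2, which encodes the plasmin inhibitor antiplasmin, lay at 10.99, 10.79 and 10.74 in RD, at 11.20, 11.01 and 10.98 in HFD, and at 11.13, 11.14 and 11.21 in GFB. RD replicate 1 overlapped with the HFD arrays, while the GFB arrays lay above all RD arrays. Its log2 fold change on the diet was 0.22 ± 0.09 (SE, n = 3 per group, adjusted p = 0.323), and 0.30 without RD replicate 1 (adjusted p = 0.153). Serpind1, which encodes heparin cofactor II, a thrombin inhibitor, lay at 11.22, 10.84 and 10.95 in RD, at 11.20, 11.27 and 11.32 in HFD, and at 11.33, 11.47 and 11.24 in GFB. RD replicate 1 was again the array nearest to the high-fat-fed ones, and the difference on the diet was 0.26 ± 0.11 (adjusted p = 0.331), and 0.37 without it (adjusted p = 0.0956). Serpinc1, the antithrombin gene, and Serping1, the C1 inhibitor gene, had log2 differences of -0.01 and 0.08, with 95% intervals of -0.17 to 0.16 and -0.10 to 0.25. Serpina11, which was not listed among these inhibitors, overlapped between all groups, at 7.99 to 8.11 in RD, 7.93 to 8.44 in HFD and 8.09 to 8.27 in GFB. Serpina5, the protein C inhibitor gene, lay under 4.74 on every array.

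None of the antitrypsin copies passed on the diet. Antitrypsin protects tissue from neutrophil elastase. The log2 differences of HFD over RD of Serpina1a, Serpina1b, Serpina1c, Serpina1d and Serpina1e lay between 0.04 and 0.12, with adjusted p from 0.697 to 0.917, and that of Serpina1f, under 4.74 on every array, was -0.04. For Serpina1c the 95% interval was -0.10 to 0.25, which leaves room for changes of that size. Serpina1e was the copy that varied within a group, at 11.66, 10.50 and 10.89 in the HFD arrays against 11.40, 11.68 and 11.67 in the GFB arrays. Without HFD replicate 1 its difference on the diet was -0.22 in place of 0.10. Its SD over the HFD arrays was 0.59, while those of Serpina1a to Serpina1d lay between 0.05 and 0.14.

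**Figure D3:**
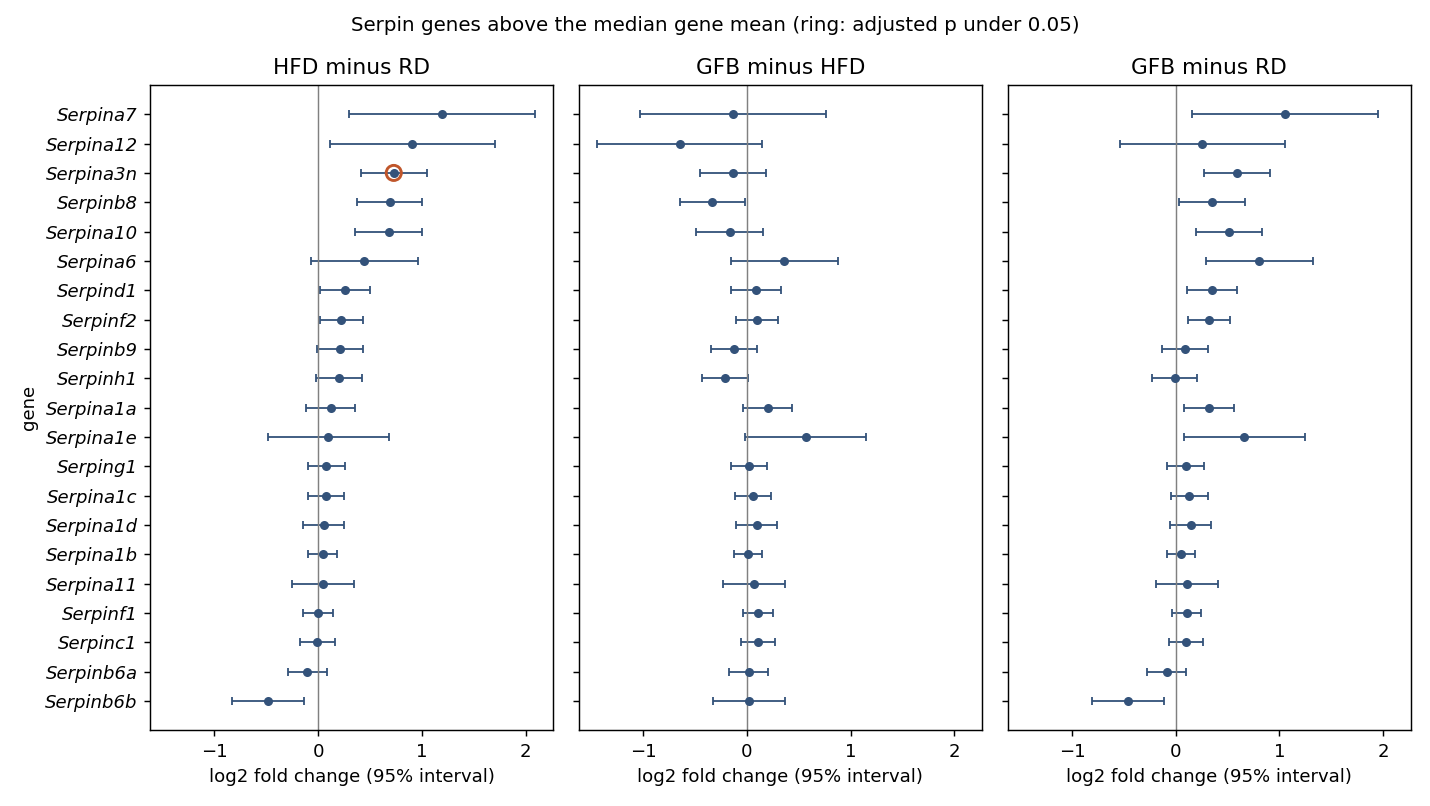
Log2 fold change (horizontal axis) with its 95% interval for the 21 serpin genes whose mean lay above the median gene mean, ordered by the HFD minus RD difference, in 3 comparisons of 3 arrays against 3. The ring marks Serpina3n in HFD minus RD at 0.73, the 1 member with an adjusted p under 0.05.

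The hormone carriers and Serpina12 had wide spreads within groups. Serpina7 encodes thyroxine-binding globulin. Its values were 9.05, 7.29 and 7.32 in RD, at 8.95, 9.17 and 9.12 in HFD, and at 8.79, 9.17 and 8.87 in GFB. RD replicate 1 stood at the level of the high-fat-fed arrays and the other RD arrays well below them. With all arrays the log2 fold change on the diet was 1.19 ± 0.40 (SE, n = 3 per group, adjusted p = 0.219). Without RD replicate 1 it was 1.78 and passed (adjusted p = 0.00145). That of GFB over RD was then 1.64 in place of 1.06 and passed (adjusted p = 0.00371). Each difference passed in this 1 of 17 alternatives only, with adjusted p up to 0.475 for HFD over RD and 0.599 for GFB over RD. Over all genes, 99.6% had a smaller spread within groups than Serpina7.

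The same array stood apart for another gene of the lists. Pnpla2, which encodes a triglyceride lipase described as a receptor of the protein of Serpinf1, lay at 7.92, 8.97 and 8.96 in RD and between 7.75 and 7.96 in the high-fat-fed arrays. RD replicate 1 was at the level of the high-fat-fed arrays here as well. Its log2 fold change on the diet was -0.74 ± 0.24 (adjusted p = 0.219), and -1.09 without RD replicate 1 (adjusted p = 0.0042). This was the 1 of 17 alternatives in which Pnpla2 passed, with adjusted p up to 0.474 in the others. The values without 1 array ran from -1.09 to -0.56. What sets this array apart was not tested.

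Serpina6 encodes corticosteroid-binding globulin, the plasma carrier of glucocorticoids. Its log2 values were 9.85, 10.37 and 10.34 in RD, 10.17, 11.17 and 10.57 in HFD, and 10.92, 11.01 and 11.05 in GFB. The HFD arrays overlapped with both other groups, whereas the GFB arrays lay close together and above all RD arrays. The differences were 0.45 ± 0.23 for HFD over RD (adjusted p = 0.452), 0.36 ± 0.23 for GFB over HFD (adjusted p = 0.863) and 0.80 ± 0.23 for GFB over RD (adjusted p = 0.204). Serpina12 encodes vaspin, a serpin known as a product of fat tissue. It lay at 4.73, 4.61 and 3.91 in RD, at 5.84, 4.45 and 5.67 in HFD, and at 4.40, 4.67 and 4.94 in GFB. HFD replicates 1 and 3 lay above every other array and HFD replicate 2 among the rest, and 6 of the 9 values were under 4.74. Its difference on the diet was 0.91 ± 0.35 (adjusted p = 0.305), with an SD of 0.76 over the HFD arrays. Of the 3 measured fat tissue markers, Adipoq and Lep lay under 4.74 on every array, and Plin1 lay at 4.53 to 4.94 and under 4.74 on 5 arrays. Lep was wholly higher in HFD than in RD (0.30 ± 0.12, adjusted p = 0.303), and the part of fat tissue in the Serpina12 values was not tested.

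**Figure D4:**
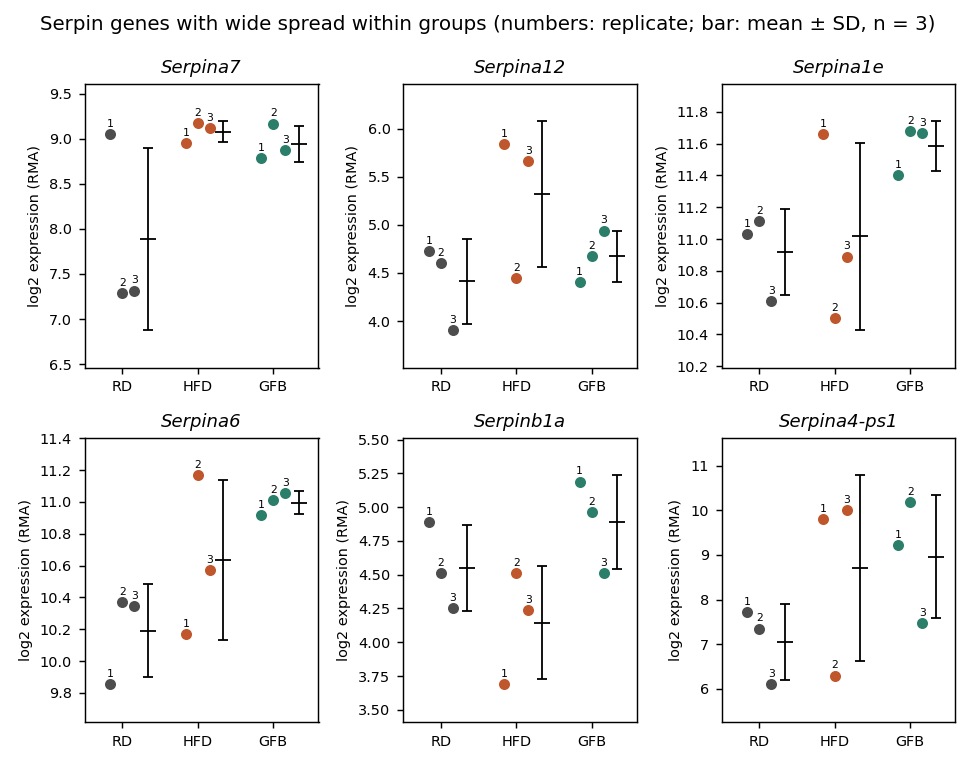
Log2 expression (RMA, vertical axis) of 5 serpin genes with wide spread within groups and of the pseudogene Serpina4-ps1, with 1 dot per array numbered by replicate and the mean ± SD of each group as a bar. RD replicate 1 lies with the high-fat-fed arrays for Serpina7, and HFD replicate 2 lies far below HFD replicates 1 and 3 for Serpina12 and Serpina4-ps1.

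Clade b serpins act inside cells, where they guard against the cell's own proteases. Of the 25 members, 20 lay under 4.74 on every array, so their values do not tell expression from background. None of the 25 passed on the diet, and 13 were higher. Serpinb8, whose human counterpart can inhibit the processing protease furin, lay at 5.00, 4.50 and 4.52 in RD, at 5.23, 5.45 and 5.40 in HFD, and at 5.12, 5.11 and 4.86 in GFB. The HFD arrays lay above all arrays of both other groups. The log2 fold change on the diet was 0.69 ± 0.14 (SE, n = 3 per group, adjusted p = 0.0546). It was past the threshold in 4 of 17 alternatives, among them the fit without RD replicate 1 (0.85, adjusted p = 0.0136). With 2 of the RD values under 4.74, the size is uncertain.

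The 5 measured markers of recruited macrophages had a mean log2 level of 4.63 to 4.75 in RD and 4.76 to 4.84 in HFD. In GFB it was 4.47 to 4.58. HFD was highest for this level and for Serpinb8. GFB lay below RD for the markers, whereas the Serpinb8 mean was higher in GFB than in RD (0.35). Itgax and Ccr2 among the markers lay under 4.74 on every array, and Gpnmb on 7. Gpnmb had the largest of the 5 differences of GFB over HFD (-0.80), all of them negative. Of the 5, Cd9 fell on the diet (-0.74, adjusted p = 0.0145) and 4 were higher. Their part in the Serpinb8 values was not tested. Serpinb6b had the largest difference in the other direction among the brighter members, at 5.63, 5.87 and 5.91 in RD against 5.29, 5.27 and 5.40 in HFD. Those groups did not overlap, and the difference was -0.48 ± 0.15 (adjusted p = 0.192). Serpinb9, which encodes an inhibitor of granzyme B, and Serpinb6a had log2 differences of 0.21 and -0.11.

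**Figure D5:**
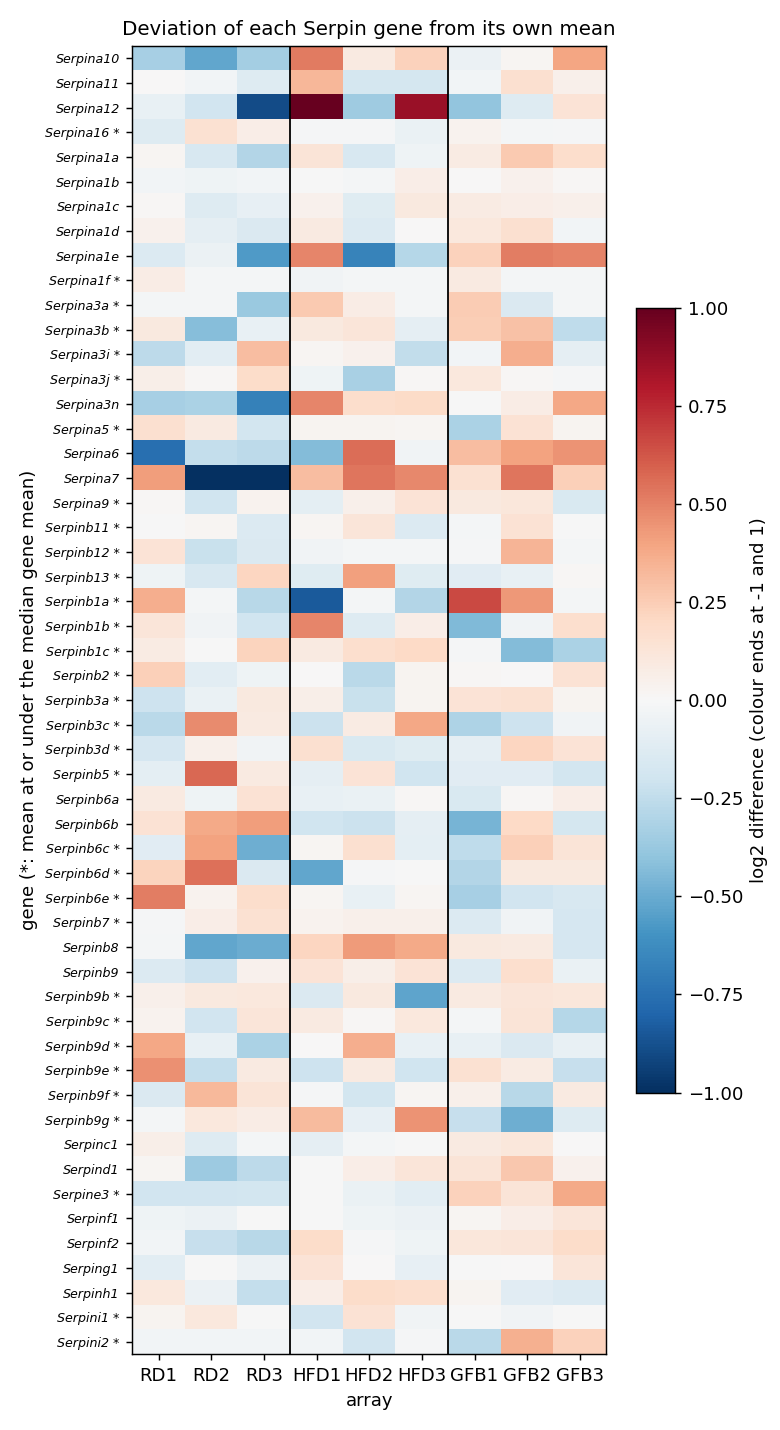
Deviation of each of the 53 serpin genes (rows, in order of symbol) from its own mean over the 9 arrays (columns), in log2 units from blue (lower) to red (higher), with an asterisk for genes whose mean lay at or under the median gene mean. Serpina7 is lower by over 1 in RD replicates 2 and 3 and higher in RD replicate 1, and Serpina3n and Serpina10 are lower in all 3 RD arrays.

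The second comparison asked which serpin genes differ with extract among high-fat-fed mice. None of the 53 members passed in limma's test, where 1 of 22180 genes did (0.00451%). At an unadjusted p under 0.05 there were 5 members, or 9.43%, against 5.98% of all genes. No member had an adjusted p under 0.10 either (0.018% of all genes). The GFB arrays lay wholly above the HFD arrays for 3 members (4.42% of all genes) and wholly below for 6 (5.27%), which together are 17% of the members against 9.69% of all genes. Among the 21 brighter members it was 2 in each direction, against 5.58% above and 7.35% below for the brighter genes. In all, 33 members were higher with extract and 20 lower, with a median log2 fold change of 0.02. Serpina3n stood at -0.14 ± 0.14 (SE, n = 3 per group, adjusted p = 0.918), with a 95% interval of -0.45 to 0.18, and Serpina10 at -0.17 ± 0.14, with an interval of -0.49 to 0.16.

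The members with the smallest p-values for the extract were mostly dim. Serpine3 had the smallest, at 3.79, 3.73 and 3.69 in HFD and 4.02, 3.92 and 4.17 in GFB (0.30 ± 0.08, adjusted p = 0.605). It also had the smallest p of the members in GFB over RD (0.43 ± 0.08, adjusted p = 0.0619), where the RD arrays lay at 3.60, 3.60 and 3.61. All 9 of its values were under 4.74. So were those of Serpinb1c (-0.41 ± 0.11), Serpinb9g (-0.51 ± 0.14), Serpinb7 (-0.16 ± 0.07) and Serpinb9b (0.301 ± 0.135). The differences of these genes and of Serpine3 are not told from background. Serpinb1a, which encodes an inhibitor of neutrophil elastase, lay at 3.69, 4.51 and 4.24 in HFD and 5.19, 4.96 and 4.51 in GFB, with a difference of 0.74 ± 0.25 (adjusted p = 0.728). Its HFD arrays were all under 4.74, as was GFB replicate 3, which met HFD replicate 2 at 4.51. In all, 6 of the 9 Serpinb1a values were under 4.74. Serpinb8 stood at -0.33 ± 0.14 (adjusted p = 0.81) with no overlap between the groups.

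Serpinh1 encodes Hsp47, the chaperone that collagen chains need to fold in the endoplasmic reticulum. It lay at 5.80, 5.64 and 5.45 in RD, at 5.76, 5.87 and 5.86 in HFD, and at 5.72, 5.58 and 5.56 in GFB. The HFD arrays lay above all GFB arrays, and RD replicate 1 reached into the HFD range. The differences were 0.20 ± 0.10 for HFD over RD (adjusted p = 0.42; 0.29 without RD replicate 1, adjusted p = 0.189) and -0.21 ± 0.10 for GFB over HFD (adjusted p = 0.833). Of the 16 measured genes of collagen chains and their maturation, 15 were higher on the diet, where 11106 of all 22180 genes were. Among these 15, 4 (Col5a2, P4ha2, Plod2 and Lox) lay under 4.74 on every array. Of these 16 genes 2 rose, against 0.821% of all genes. These were Col1a1, by 0.85 ± 0.12 (adjusted p = 0.0152), and Col3a1, by 1.14 ± 0.14 (adjusted p = 0.0115). The call of Col1a1 held in 12 of 17 alternatives and was lost in the fit of RD and HFD alone (adjusted p = 0.0877) and without RD replicates 2 or 3 or HFD replicates 2 or 3 (adjusted p from 0.0511 to 0.0686). That of Col3a1 held in 15 of 17, and was lost in the fit of RD and HFD alone (adjusted p = 0.0749) and without RD replicate 2 (adjusted p = 0.0538). With extract none passed, 11 were lower, and 4 lay wholly below HFD, against 5.27% of all genes and 7.35% of the brighter ones. Col3a1 lay at 6.85, 7.27 and 7.45 in HFD and at 6.11, 6.02 and 5.98 in GFB (-1.15 ± 0.14, adjusted p = 0.0975). This difference passed in 2 of 17 alternatives, with adjusted p from 0.0125, without HFD replicate 1, to 0.489. Col1a1 had a difference of GFB over HFD of -1.045 ± 0.12 (adjusted p = 0.0851), which passed in 3 of 17 alternatives, with adjusted p from 0.0112 to 0.489. The 8 stellate cell markers, Col1a1 among them, had a mean log2 level of 6.75 to 6.92 in RD, 6.74 to 6.96 in HFD and 6.89 to 7.01 in GFB. Of the 8, 6 were higher in GFB than in HFD, while Col1a1 and Acta2 (-0.21) were lower. The part of stellate cells in the Serpinh1 values was not tested.

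The extract group was also set against the regular diet, a comparison that shares its RD arrays with that of the diet. No member passed, where 98 genes of all did (0.442%). At an adjusted p under 0.10 there was 1 (0.974% of all genes). At an unadjusted p under 0.05 there were 15 members, or 28.3%, against 12.1% of all genes. The GFB arrays lay wholly above the RD arrays for 12 members, or 22.6%, against 7% of all genes tested, and wholly below for 5, or 9.43%, against 7.62% (14.6% in either direction). All 12 but Serpine3 were among the 21 brighter members, and of the brighter genes of the array 9.93% lay wholly above and 11.2% wholly below. The 12 were Serpina10, Serpina1a, Serpina1b, Serpina1c, Serpina1e, Serpina3n, Serpina6, Serpind1, Serpine3, Serpinf1, Serpinf2 and Serping1. Their log2 differences ran from 0.05 for Serpina1b and 0.10 for Serping1 to 0.66 for Serpina1e (adjusted p = 0.353) and 0.80 for Serpina6 (adjusted p = 0.204). The 5 wholly below were Serpinb1c, Serpinb5, Serpinb6e, Serpinb7 and Serpinb9g, all under 4.74 on every array. Serpinb6e had the smallest p of these 5 (-0.47 ± 0.12, adjusted p = 0.148).

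The plasma inhibitors named above stood out little one by one. Serpina3n had a log2 difference of GFB over RD of 0.59 ± 0.14 (adjusted p = 0.138), Serpina10 of 0.51 ± 0.14 (adjusted p = 0.196), Serpinf2 of 0.32 ± 0.09 (adjusted p = 0.202), Serpind1 of 0.35 ± 0.11 (adjusted p = 0.238) and Serpina1a of 0.32 ± 0.11 (adjusted p = 0.268). Serpinf1, which encodes pigment epithelium-derived factor, a serpin that inhibits no protease, lay at 8.21, 8.20 and 8.25 in RD, 8.25, 8.21 and 8.19 in HFD and 8.27, 8.32 and 8.38 in GFB. Its GFB arrays lay above all others, and the difference from HFD was 0.11 ± 0.06 (adjusted p = 0.86). A moderated F test over all 3 groups called none of the 53 members, against 0.78% of all genes, and 14 had an unadjusted p under 0.05 (12.3% of all genes). Serpini1 and Serpini2, the neuroserpin and pancpin genes, lay under 4.74 on every array.

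Secreted serpins pass through the endoplasmic reticulum, which disposes of misfolded antitrypsin. Of the 18 measured genes of folding, export and disposal there, none passed on the diet, 16 were higher, and 10 lay wholly above RD, with a median log2 fold change of 0.21. Of all 22180 genes, 11106 were higher and 7.93% lay wholly above RD (11.8% of the brighter genes). Syvn1 and Sel1l, which encode the core of a ubiquitin ligase complex for misfolded proteins, stood at 0.56 ± 0.11 (adjusted p = 0.055) and 0.49 ± 0.10 (adjusted p = 0.0576), and each passed in 4 of 17 alternatives, 1 of them the fit without RD replicate 1, with adjusted p up to 0.169 and 0.182. Of the 14 measured genes of acute-phase signalling, none passed on the diet and 9 were higher, with a median of 0.04. Nr3c1, the glucocorticoid receptor gene, stood at 0.18.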

How the data were processed

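The authors deposited 1 log2 value for every probe set and array. Per the submitters' processing notes it comes from RMA in oligo. That method brings all arrays to 1 distribution, so a shift common to most genes cannot be seen. For the array's genome build, the sources used here name none. Of 41345 probe sets, 23521 had 1 gene symbol, 1814 several and 16010 none. Only the first kind was used, with the highest-mean probe set for each gene. The 53 members had 54 probe sets, and their symbols all matched RefSeq (GRCm38.p6).

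A linear model with a mean per group was fitted to all 9 arrays and 22180 genes with limma 3.58.1 in R 4.3.3 (6 residual and 3.28 prior degrees of freedom). Genes were called at a Benjamini-Hochberg adjusted p under 0.05, two-sided. Genes named were members called, the 8 smallest p-values per comparison and a list of liver-secreted serpins, beside the called and leading genes of 5 related lists. F10 was named as well, as the gene of a target of the Serpina10 protein. Other members were named without full statistics. Members, lists and motifs were chosen with earlier results of these data known, and the HNF1 letters after the promoter windows were seen. Data of 22180 genes were simulated for HFD minus RD with independent normal noise and 200 changed genes placed at random. On these the procedure found 42.4% of changes of 0.5, 90.4% of 1 and 99.4% of 2. The members had a median SD within groups of 0.16, against 0.132 for all genes, so these rates may not hold for them. The number of arrays limits the precision.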

Additional observations from a re-analysis of the deposited data

How the results depend on the processing

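In HFD minus RD the count of members called was 1, and it was 3 with variance trend and robust moderation, 3 among genes above the median gene mean, 2 with array weights, 0 with a further quantile normalization, 0 with the replicate block, 0 when only the 6 arrays compared were fitted, 3 at an adjusted p under 0.10, and 0 to 2 without 1 array. In GFB minus RD the count of 0 became 1 at an adjusted p under 0.10 and lay between 0 and 1 without 1 array. In the F test it became 1 among the brighter genes, 2 at an adjusted p under 0.10, and 0 to 2 without 1 array. GFB minus HFD had 0 in every alternative run. The median over members was 0.12 (HFD minus RD) and 0.14 (GFB minus RD) among the brighter genes, where fewer members were tested, and without 1 array 0.019 to 0.057 and 0.025 to 0.103.

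Signs turned only for differences that did not pass. With array weights these were Col3a1 in GFB minus RD (0.011), Serpinb6b in GFB minus HFD (-0.018), Serpinc1 in HFD minus RD (0.011) and Serpinh1 in GFB minus RD (0.008). With a further quantile normalization these were Col3a1 in GFB minus RD (0.000) and Proz in GFB minus HFD (-0.019). Without 1 array, the following ranges crossed 0. For GFB minus HFD they were F11 -0.068 to 0.157, Masp1 -0.063 to 0.058, Proz -0.016 to 0.022, Serpina11 -0.016 to 0.238, Serpina1b -0.007 to 0.036, Serpina1c -0.004 to 0.107, Serpinb6b -0.152 to 0.181 and Serping1 -0.031 to 0.079. For GFB minus RD they were Col3a1 -0.066 to 0.064 and Serpinh1 -0.100 to 0.074. For HFD minus RD they were Serpina11 -0.127 to 0.127, Serpina1d -0.002 to 0.112, Serpina1e -0.223 to 0.355, Serpinb7 -0.062 to 0.020, Serpinc1 -0.057 to 0.039 and Serpinf1 -0.016 to 0.013.

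The replicate numbers do not pair the arrays by the labels, and of 9 same-numbered pairs only 1 had a correlation of deviations above 0.1 (range -0.05 to 0.17). With the replicate block the call of Serpina3n in HFD minus RD was lost (adjusted p = 0.0883), as were those of Proz in HFD minus RD (adjusted p = 0.0522) and GFB minus RD (adjusted p = 0.0828) and of Masp1 in GFB minus RD (adjusted p = 0.0772). The cause of these shifts was not tested.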

Other observations

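The pseudogene Serpina4-ps1, outside the members by its symbol, lay at 7.73, 7.35 and 6.10 in RD, 9.80 and 6.30 in HFD replicates 1 and 2, with replicate 3 above both, and 9.22, 10.19 and 7.47 in GFB. Its spread within groups was larger than that of nearly all genes (pooled SD 1.52), and it did not pass in any comparison (adjusted p from 0.501 to 0.98). HFD replicate 2 was the lowest HFD array for Serpina4-ps1, Serpina12 (4.45) and Serpina1e (10.50) and the highest for Serpina6 (11.17). Lifr, a receptor gene of the acute-phase signalling list, lay at 10.36, 9.27 and 10.20 in HFD, with the same array lowest, against 9.42 to 9.54 in RD. Lifr did not pass on the diet (0.48 ± 0.24, adjusted p = 0.434). It passed in 1 of 17 alternatives, without HFD replicate 2 (0.82, adjusted p = 0.0306), and the values without 1 array ran from 0.27 to 0.82, with adjusted p up to 0.715. These genes were chosen after their values were seen.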
